A study of Mus musculus with 2 samples.

Results

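Prostaglandin E2 (PGE2) is a lipid signal that epithelial and immune cells make within minutes to hours of stimulation. Phospholipase A2 frees arachidonic acid from membranes, the cyclooxygenases Ptgs1 and Ptgs2 turn it into the intermediate PGH2, and the PGE2 synthases Ptges, Ptges2 and Ptges3 turn that into PGE2. The enzyme Hpgd inactivates it, and the receptors EP1 to EP4 (genes Ptger1 to Ptger4) receive it. In the mammary gland this pathway is best known from inflamed and tumour tissue, where Ptgs2 is the inducible cyclooxygenase.

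The 10 genes of this pathway (2 cyclooxygenases, 3 synthases, 1 inactivating enzyme and 4 receptors) were taken by name from a table of 49492 genes. Mammary basal cells of WT adult female mice had been sorted and grown as 3D colonies in a matrix, in a medium with EGF and insulin, transferrin and selenium. The control group (ctrl, treatment none) held cells grown alone, with no culture time given for this library. The M2 group held cells co-cultured for 11 to 14 days with M2-like macrophages, which were derived from the bone marrow of C57/B6 mice, polarised with IL-4 and IL-13, and kept apart behind the membrane of a trans-well chamber. The strain of the basal cells is not given in the labels. Each group was 1 library, so no difference below has a replicate check, and the tests compare 2 libraries, not the conditions.

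The libraries held 26912610 (ctrl) and 29413844 (M2) reads in genes. Epithelial marker genes were abundant in both. The 10 basal markers summed to 9205 CPM (read counts scaled to library size) in ctrl and 9225 in M2, led by Krt14 in ctrl and Krt5 in M2, and the 10 luminal markers to 3594 and 3158 CPM, led by Krt8. By the rule given below, 1 of 10 basal genes (Oxtr) and 5 of 10 luminal genes were called lower in M2, against 6.57% of all genes tested. The luminal genes called were Elf5, Esr1, Pgr, Prlr and Foxa1, and the median log2 difference of the luminal list was -0.94. The 18 macrophage markers summed to 65.2 and 84.5 CPM, and most of it was Arg1 (1507 and 2090 reads), which is not specific to macrophages. Adgre1, Tyrobp, Fcer1g and Ptprc, which define macrophages and leukocytes, were among 7 of the list with 0 reads in both libraries. Csf1r (94 and 92 reads) and Cd68 (170 and 165 reads) were detected in both and not called. Of the 6 macrophage markers tested, 2 were called higher in M2, against 8.16% of all genes. These were Aif1 with 40 reads against 3 and Cd163 with 30 against 2. The 10 fibroblast markers fell from 685 to 178 CPM in sum, led by Col6a3 in ctrl and Col1a2 in M2. Col6a3 alone went from 344 to 18.1 CPM. Of the 10, 4 were called lower and 2 higher, against 6.57% and 8.16% of all genes. In such bulk libraries, fewer cells of a type and less RNA per cell cannot be told apart.

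Co-culture with M2 went with a strong gain of 1 terminal synthase. Ptges was 62.7-fold higher in the M2 library, Ptgs2 was 2.03-fold higher, and no pathway member was called lower. A gene was called at a 2-fold difference or more and an adjusted p under 0.05 (exact binomial test on the reads, Benjamini-Hochberg adjustment over the 19233 genes tested). By this rule 2 of the 9 members with enough reads were higher, against 8.16% of all genes tested, and 0 were lower, against 6.57%. By fold alone the members called were the same in number, 2 and 0, against 9.51% and 7.83% of all genes. The median log2 difference of the 9 members was 0.22, against -0.0051 over all genes tested. At any fold, 6 of the 9 members had an adjusted p under 0.05 in the binomial test, against 53.2% of all genes tested. Ptger3 had no reads and was not tested.

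How firmly each call stands depends on the spread between cultures, which 1 library per group cannot give. When a biological coefficient of variation was assumed in the exactTest of edgeR, Ptges and Ptgs2 passed both thresholds at 0.1. Ptges alone passed them at 0.2 and at 0.4. Over all genes, 5% were higher and 3.61% lower at 0.2, and 0.91% and 0.676% at 0.4.

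To show the sequence upstream of the called members, the promoter windows of Ptgs2 and Ptges are printed from 170 bases before the annotated gene start to 30 bases after it (RefSeq, GRCm38.p6, 5′ to 3′ on the strand of the gene). Ptgs2 lies on the plus strand, chr1:150099861-150100060, and Ptges on the minus strand, chr2:30903268-30903467. The RefSeq start used for Ptges lies inside the longer interval that the count table gives for this gene. Capitals mark a match to a searched motif.
Ptgs2: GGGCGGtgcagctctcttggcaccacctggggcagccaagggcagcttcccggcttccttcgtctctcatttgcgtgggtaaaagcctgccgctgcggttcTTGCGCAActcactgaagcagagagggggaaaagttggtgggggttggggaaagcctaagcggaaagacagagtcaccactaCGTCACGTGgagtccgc
Ptges: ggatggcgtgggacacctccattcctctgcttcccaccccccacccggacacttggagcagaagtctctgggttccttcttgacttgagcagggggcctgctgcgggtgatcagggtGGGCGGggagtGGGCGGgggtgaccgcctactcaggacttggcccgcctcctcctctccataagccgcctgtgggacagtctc

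The motifs were searched on both strands over 250 bases before and 50 after the start. They were CRE (TGACGTCA), short CRE (TGACG), E-box (CACGTG), HRE core (ACGTG, contained in the E-box), the TATA box letters (TATAAA), AP-1 (TGANTCA), C/EBP (TTGCNNAA), GAS (TTCNNNGAA), SP1 (GGGCGG) and NF-kB. In the Ptgs2 window a C/EBP match began 69 bases before the start. A short CRE began at base 14 after the start and overlapped an E-box that began at base 17, and an SP1 match began 170 bases before it. The Ptges window held only SP1 matches, which began 53 and 42 bases before the start. Among 32851 promoter windows of the same length, 10.8% held the C/EBP letters, 20.8% the short CRE, 7.15% the E-box and 35.7% the SP1 letters. So Ptgs2 and Ptges shared the SP1 letters alone, which are common. NF-kB matches, present in 8.46% of windows, were found neither in the Ptgs2 nor in the Ptges window. Sequence further upstream than 250 bases was not searched. A match is a string of letters and not a measured binding site. Windows were found for 9 of the 10 members, and Ptger1 had none.

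The cyclooxygenases start the pathway. Ptgs2 (chromosome 1, 150100031 to 150108227) was counted with 2279 reads in the ctrl library against 4857 in the M2 library, or 83.0 and 168 CPM. This is a log2 difference of 1.02 (95% interval 0.95 to 1.09, counting error only). The value lay on the 2-fold line: it was 0.96 with total reads, 0.996 with upper quartile scaling and 0.95 with mitochondrial genes left out of the totals, and the call was lost under each of these. The direction was the same under every scaling. With an assumed coefficient of variation of 0.1, the adjusted p in the edgeR exactTest was 1.51e-05, and with 0.2 it was 0.127.

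Ptgs1 (chromosome 2, 36230426 to 36252272), the constitutive cyclooxygenase, had 187 and 169 reads. Its log2 difference of -0.22 (-0.53 to 0.09) did not differ beyond counting error. Ptgs2 was the major form in both libraries, with 92.4% of the cyclooxygenase reads in ctrl (95% Clopper-Pearson interval 91.3 to 93.4) and 96.6% in M2 (96.1 to 97.1). This share does not depend on how the libraries were scaled.

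**Figure D1:**
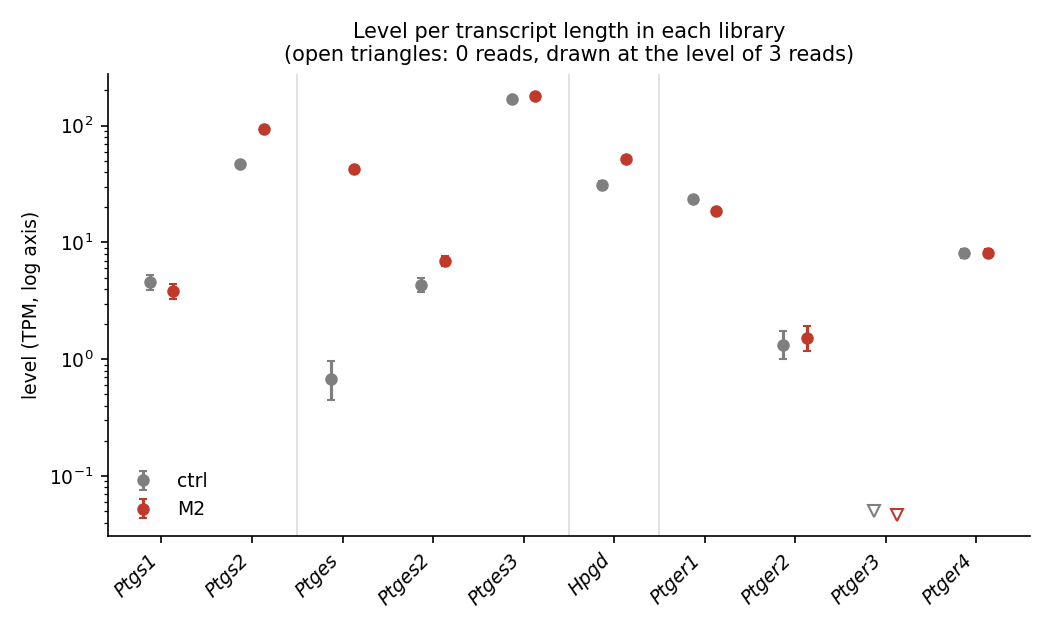
Level of each pathway gene in TPM (reads scaled for exon length and library, log axis) in the ctrl (grey) and M2 (red) library, with 95% Poisson intervals of the reads; vertical lines part cyclooxygenases, synthases, Hpgd and receptors. Ptges sits at 0.674 TPM in ctrl and 42.5 TPM in M2, while the other detected genes lie much closer to their ctrl level, and Ptger3 has 0 reads.

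The synthases differed among themselves. Ptges, the inducible membrane-bound enzyme that is known to work together with Ptgs2, lies on chromosome 2 (30889471 to 30929863). Its counts were 28 reads for ctrl and 1908 reads for M2, or 1.02 and 66.2 CPM, and its log2 difference was 5.97 (5.48 to 6.61). This placed Ptges at rank 19 of the 19233 genes tested, counted from the highest difference. Of 3346 other genes with at least as many reads in M2, 4 had a higher difference. The value lay between 5.79 and 5.99 over the other scalings, filters, pseudocounts and the length correction, and the edgeR exactTest gave an adjusted p of 8.46e-06 at the highest coefficient of variation assumed, 0.4. The macrophage markers given above were also higher in M2 in sum, a sum that was mostly Arg1. Cd68 and Csf1r were not called, while Aif1 and Cd163 were called higher at few reads. The part of these markers in the difference of Ptges was not tested.

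Ptges2 (chromosome 2, 32395896 to 32405772), a second membrane-associated synthase, had 231 and 399 reads. Its log2 difference of 0.71 (0.48 to 0.96) was beyond counting error but under 2-fold, and it was not called. In the edgeR exactTest at 0.2 the adjusted p of Ptges2 was 0.485. Ptges3 (chromosome 10, 128058954 to 128077272) is a co-chaperone of Hsp90, also called p23, with PGE2 synthase activity in the cytosol. It had 3983 and 4539 reads, a difference of 0.12 (0.06 to 0.18), and was not called. Its adjusted p in the exact binomial test was 0.000491, but 0.0934 with total reads and 0.178 with mitochondrial genes left out. A processed pseudogene, Ptges3-ps, is annotated on chromosome 6 and has no row of that name in the table, so the reads of Ptges3 are uncertain to that extent.

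By reads per exon length, Ptges held 0.385% of the summed synthase level in ctrl and 18.6% in M2. Ptges3 fell as a share from 97.1% to 78.4%, although its own level was 170 and 179 TPM. Leaving out Ptges3, the reads of Ptges were 10.8% of those of Ptges and Ptges2 in ctrl (7.30 to 15.2) and 82.7% in M2 (81.1 to 84.2). The order of these synthases turned round, with Ptges below Ptges2 in ctrl (0.674 and 4.32 TPM) and above it in M2 (42.5 and 6.90 TPM).

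**Figure D2:**
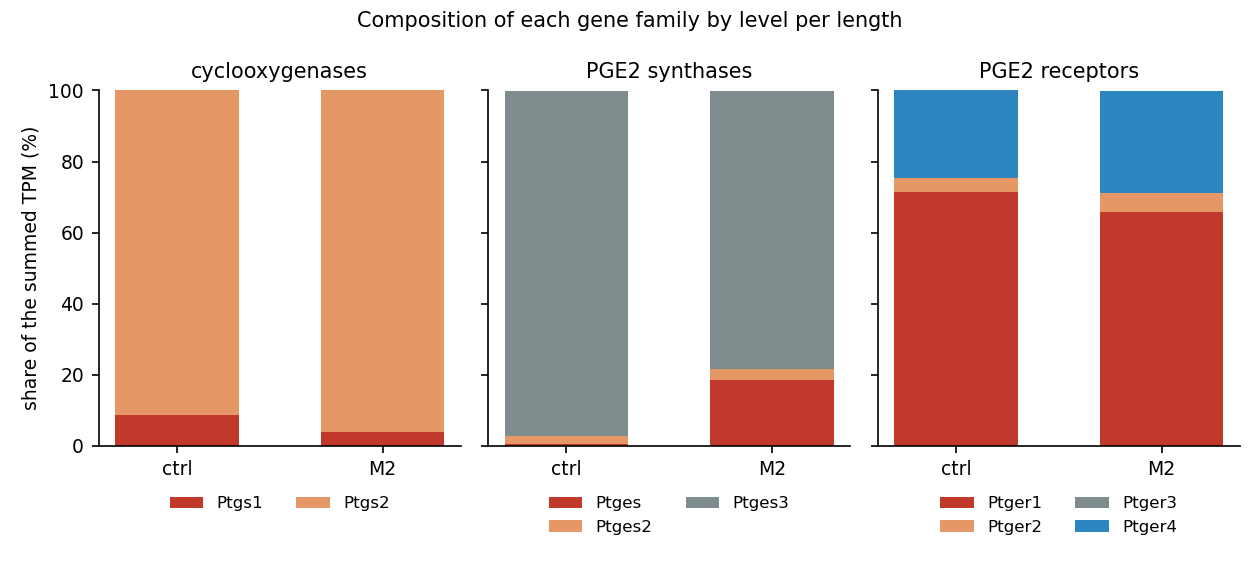
Share of the summed level per length (percent of TPM) that each gene takes within the cyclooxygenases, the PGE2 synthases and the PGE2 receptors, in ctrl and M2. Ptges widens from 0.385% to 18.6% of the synthases, whereas Ptgs2 (91.2% and 96.1%) leads the cyclooxygenases in both libraries. Ptger1 is drawn as counted, at 71.3% and 65.8% of the receptors, but its value is uncertain.

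Hpgd (chromosome 8, 56294585 to 56321043) oxidises and inactivates PGE2 inside cells. It was read 550 times in ctrl against 991 times in M2, a log2 difference of 0.78 (0.63 to 0.93). This was beyond counting error and higher in M2, but under 2-fold, and it was not called. By level per length Hpgd held rank 3 among the 10 genes in both libraries, at 30.9 and 51.5 TPM.

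Slco2a1, the transporter that brings prostaglandins into cells for inactivation, was called higher. It had 5308 and 16150 reads, a log2 difference of 1.53 (1.49 to 1.58; adjusted p = 0.00511 in the edgeR exactTest at 0.2 and 0.978 at 0.4). Ptgr1, a reductase that acts on the product of Hpgd, went the other way with 2367 and 1098 reads. Its log2 difference of -1.18 (-1.28 to -1.08) was called by the binomial test but not in the exactTest at 0.2 (adjusted p = 0.0550, edgeR). Of the 5 transport and reductase genes, 1 was called higher (8.16% of all genes), 1 lower (6.57%) and 3 were not called, with a median of -0.12.

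The receptors showed no called difference. Ptger4 (chromosome 15, 5206661 to 5244187), which signals through cAMP, had 567 and 617 reads. Its log2 difference was 0.05 (-0.12 to 0.22), and its sign changed with the scaling. Ptger2 (chromosome 14, 44988195 to 45003820), the other cAMP-coupled receptor, had 52 and 64 reads and a difference of 0.22 (-0.32 to 0.79).

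Ptger3 (chromosome 3, 157566892 to 157645888), the receptor that lowers cAMP, had 0 reads in both libraries, which allows a level of up to 0.109 CPM in ctrl and 0.104 CPM in M2 (3 reads). Ptger1 (chromosome 8, 83666678 to 83672753), the calcium-coupled receptor, had 1351 and 1158 reads, a difference of -0.29 (-0.41 to -0.18) that was under 2-fold. The value of Ptger1 is uncertain, and its difference is given as counted. The use of strand in counting is not stated, and exons shared with genes of the opposite strand were found at Ptger4 (15.3% of exon bases with Gm15937, which had 3 and 0 reads, and 1.23% with Ttc33) and at Ptgs1 (3.81% with Gm43621, which had 30 and 21 reads). Without Ptger1, Ptger4 gave 91.6% of the receptor reads in ctrl (89.1 to 93.7) and 90.6% in M2 (88.2 to 92.7).

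**Figure D3:**
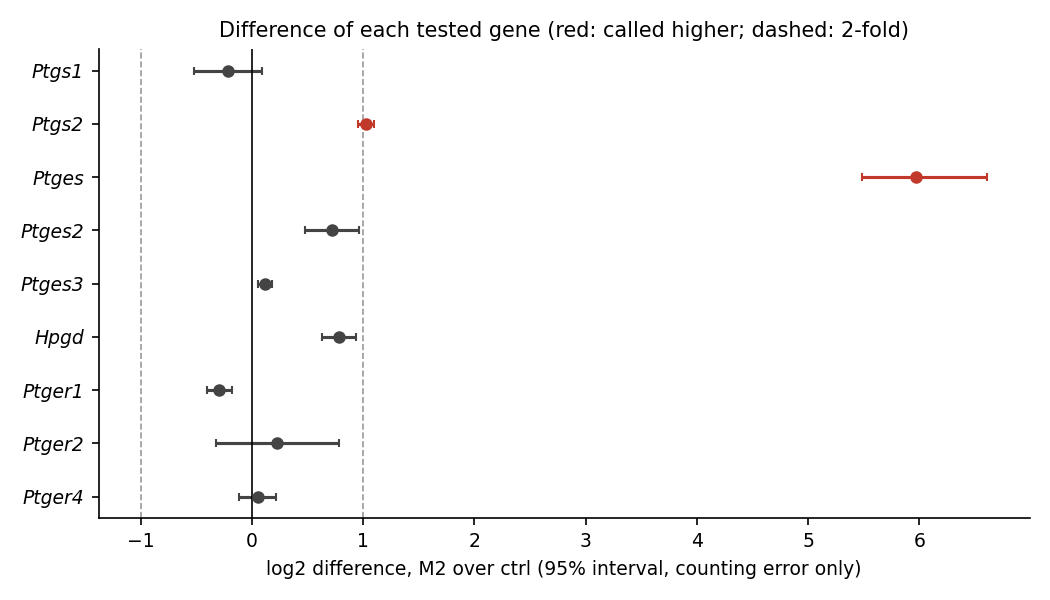
Log2 difference of M2 over ctrl for the 9 genes tested (points) with 95% Clopper-Pearson intervals of the reads (bars, counting error only), where red marks a called gene and dashed lines mark 2-fold. Ptges stands at 5.97, far from the other genes, Ptgs2 sits on the 2-fold line, and the intervals of Ptgs1, Ptger2 and Ptger4 cross 0.

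Compared per exon length, Ptges3 was the most abundant member in both libraries (170 and 179 TPM), followed by Ptgs2 (47.1 and 92.8 TPM) and Hpgd. In ctrl the order went on with Ptger1, Ptger4, Ptgs1, Ptges2, Ptger2, Ptges and Ptger3, and the counting intervals of Ptgs1 (3.93 to 5.26 TPM) and Ptges2 (3.78 to 4.92 TPM) overlapped. In M2 Ptges had moved from rank 9 to rank 4, above Ptger1. There the intervals of Ptger4 (7.49 to 8.79 TPM) and Ptges2 (6.24 to 7.61 TPM) overlapped. Among all genes tested, the level of Ptges rose from percentile 12.4 to percentile 81.8, and that of Ptgs2 went from 83.3 to 91.9.

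**Figure D4:**
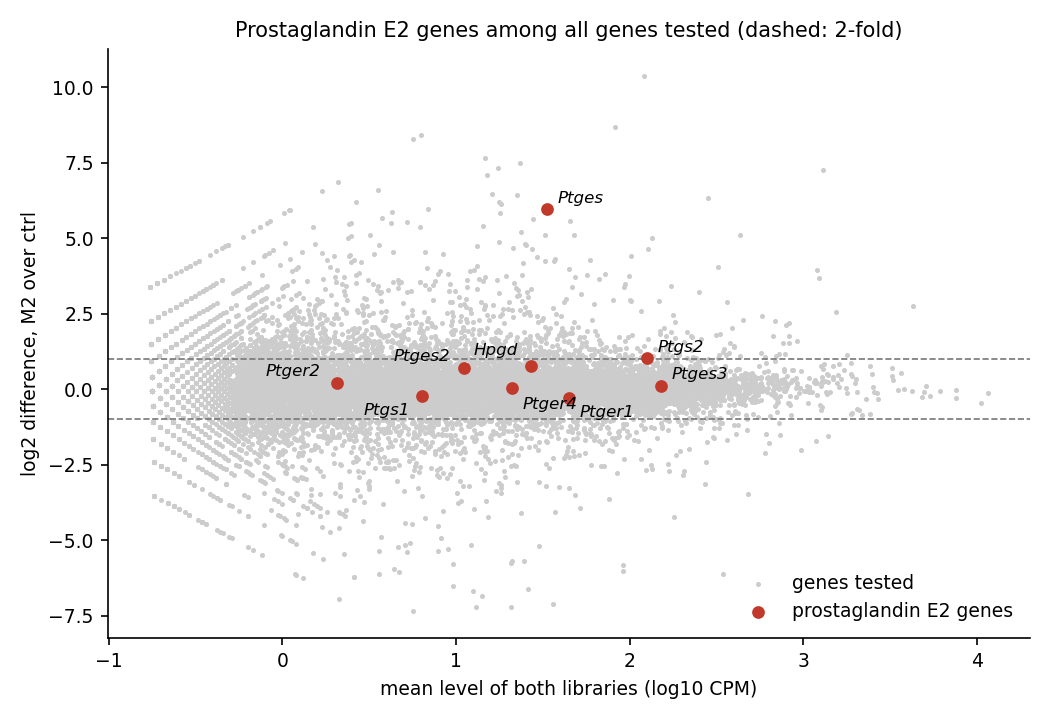
Log2 difference of M2 over ctrl against the mean level of both libraries (log10 CPM) for all 19233 genes tested (grey) and the 9 tested PGE2 pathway genes (red), with dashed lines at 2-fold. Ptges lies in the sparse upper edge of the cloud, Ptgs2 on the upper line, and the other 7 genes between the lines.

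Beyond the PGE2 genes, 73 other genes of the eicosanoid pathway and of the cAMP response were examined, of which 53 had enough reads. Of these, 8 were called higher (15.1%, against 8.16% of all genes) and 13 lower (24.5%, against 6.57%), and the median log2 difference was -0.12. These numbers rest on the assumed spread: the edgeR exactTest left 5 and 7 genes at 0.2 and 0 and 0 at 0.4.

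At the start of the pathway, 2 of 11 phospholipase A2 genes tested were called lower and 0 higher, against 6.57% and 8.16% of all genes, with a median of -0.37. The called genes Pla2g4c (66 and 27 reads, log2 difference -1.33) and Pla2g3 (15 and 4 reads, -1.75) had few reads, and both calls were lost in the edgeR exactTest at 0.2 (adjusted p = 0.0991 and 0.293). Pla2g4a, the cytosolic enzyme that supplies arachidonic acid and the gene of this list with the most reads, was picked out after its values were seen. It had 5780 and 3059 reads, a difference of -0.99 (-1.05 to -0.93), and was not called. It passed 2-fold with total reads (-1.05), upper quartile scaling (-1.01) and totals without mitochondrial genes (-1.06), the scalings under which Ptgs2 lost its call. In the edgeR exactTest at 0.2 its adjusted p was 0.148.

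Of 9 synthases of other prostanoids tested, 3 were called lower and 1 higher, against 6.57% and 8.16% of all genes. Both PGD2 synthases were lower in M2. Hpgds, the haematopoietic form, had 135 and 18 reads, a log2 difference of -2.91 (-3.78 to -2.26), and Ptgds, the lipocalin form, had 65 and 8 reads, a difference of -2.95 (-4.36 to -2.03). Both passed the edgeR exactTest at 0.2 (adjusted p = 1.90e-06 and 8.37e-05) but not at 0.4 (0.110 and 0.140). Of the 8 mast cell markers, Cpa3, Tpsb2, Mcpt4, Ms4a2 and Fcer1a had 0 reads in both libraries. Tpsab1 had 0 and 1 reads, and Hdc had 9 and 8 and was not called. Kit, which mammary epithelium also expresses, fell from 15110 to 4973 reads. The fibroblast markers given above were lower in M2 in sum but mixed. Of 10, 4 were called lower and 2 higher (Dcn and Fbln1), against 6.57% and 8.16% of all genes. The part of the fibroblast markers in the differences of Hpgds and Ptgds was not tested.

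The genes linked to PGF2α were part of the 9 synthases tested above, and Akr1c18 and Akr1b3 were called in opposite directions. Akr1c18, a steroid dehydrogenase of the aldo-keto reductase family, had 123 and 33 reads (-1.94), and Akr1b3, an aldose reductase with PGF synthase activity, had 551 and 1259 reads (1.12), a call lost in the edgeR exactTest at 0.2 (adjusted p = 0.0808). Fam213b (-0.12), Cbr1 (-0.02) and Cbr3 (-0.21), also linked to PGF2α, were not called. Receptors for the other prostanoids were barely detected. Of 5 listed, 3 had enough reads, of which 1 was called higher and 0 lower, against 8.16% and 6.57% of all genes. The called gene, Ptgdr, a PGD2 receptor, had 7 and 26 reads (log2 difference 1.68, 95% interval 0.58 to 3.27). This call too was lost in the edgeR exactTest at 0.2 (adjusted p = 0.134).

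Since EP2 and EP4 act through cAMP, 12 genes known to respond to cAMP were listed. They did not move one way: 1 was called higher (8.16% of all genes), 4 lower (6.57%) and 7 were not called, with a median of -0.21. Pde4b, a phosphodiesterase that degrades cAMP, had 3619 and 9459 reads, a difference of 1.31. Fos (42339 and 11153 reads, -2.00), Nr4a1 (7989 and 1297 reads, -2.69) and Dusp1 (9423 and 4804 reads, -1.04) were lower, as was the growth factor Areg (1137 and 315 reads, -1.92), which was picked out after its values were seen. The call of Dusp1 was lost in the edgeR exactTest at 0.2 (adjusted p = 0.112). These genes answer to many other signals. Crem, which has a cAMP-driven internal promoter and was likewise chosen with its values known, showed 194 and 190 reads and a difference of -0.10 (-0.40 to 0.19).

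**Figure D5:**
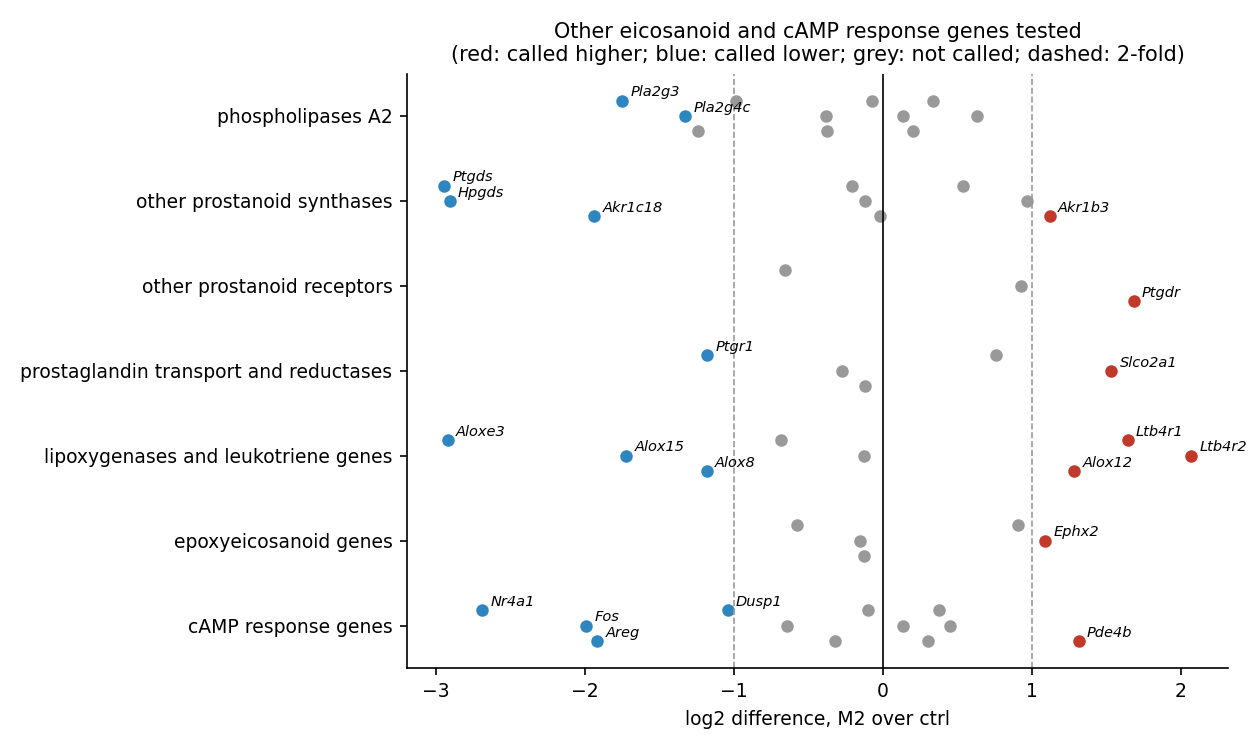
Log2 difference of M2 over ctrl for 53 tested eicosanoid and cAMP response genes outside the PGE2 set, by list, with red for called higher, blue for called lower, grey for not called and dashed lines at 2-fold. Called genes lie on both sides of 0, from Ptgds at -2.95 to Ltb4r2 at 2.07.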

How the data were processed

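RNA of 1 ctrl and 1 M2 library was sequenced by the study. Libraries were made with a SMARTER mRNA-Seq kit per the labels. The deposited table gives, for each gene, the unnormalized read count of each library beside exon coordinates and exon length. The series text speaks of a microarray, but the values are whole-number sequencing counts. The submitters' processing notes list GRCm38 and mm10, and all 10 members have the start and end of GENCODE M21 (GRCm38). The aligner, the counting tool and the use of strand are not given in the sources used here, and no molecular identifiers are stated. The intervals cover counting error only and treat each read as an independent count. They would be too narrow where reads were copies of the same molecule.

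Genes with at least 10 reads summed over both libraries were tested (19233). Library sizes were multiplied by TMM (trimmed mean of M values) factors from edgeR 4.0.16 (R 4.3.3), 1.02 (ctrl) and 0.980 (M2). The log2 difference is M2 over ctrl of counts plus a pseudocount of 1, divided by the scaled library size. Its 95% interval comes from the Clopper-Pearson interval of the share of reads, without a pseudocount. CPM uses the scaled library size, and TPM was computed from the counts and the exon length, without TMM. Calls used a two-sided exact binomial test with Benjamini-Hochberg adjustment, at thresholds of 2-fold and an adjusted p of 0.05. The functions were tested on simulated data. Other scalings, pseudocounts, filters, thresholds, a correction for gene length and the exactTest of edgeR with an assumed coefficient of variation were tried.

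The members and gene lists were chosen with earlier results of these data known. Named are all members, up to 4 called genes with the most reads per pathway list (otherwise the gene with the most reads) and the leading gene of marker lists. Other genes were picked with their values known. The comparison that makes the value of Ptger1 uncertain is not reported here. With 2 libraries, no gene was ranked by likeness of pattern.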

Additional observations from a re-analysis of the deposited data

How the results depend on the processing

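Alternatives changed 1 processing choice and kept the rest. Of the 27 tested genes named by rule, 24 kept their direction and their call, or lack of one, under the 8 alternatives other than the exactTest and the filter of 1 CPM in both libraries. That filter left 9 called genes untested (Hpgds, Ptgds, Pla2g4c, Pla2g3, Ptgdr, Ltb4r1, Ltb4r2, Alox8 and Ephx2). The exceptions under the 8 were Ptgs2 and Ephx2, which lost their calls under some, and Ptger4, whose log2 difference turned to -0.0065 with total reads and -0.0173 with mitochondrial genes left out of the totals. With total reads, upper quartile scaling or totals without mitochondrial genes, the members called higher numbered 1 in place of 2. They also numbered 1 in the exactTest at 0.2 and 0.4 and at a 4-fold threshold, and 4 at a 1.5-fold threshold. Of all genes, 5% were higher in the exactTest at 0.2 and 0.91% at 0.4. Shares of all genes under the other alternatives in this paragraph are not given, so those counts have no background beside them. The 8 higher and 13 lower pathway genes became 4 and 6 with at least 1 CPM in both libraries, 5 and 7 in the exactTest at 0.2, 0 and 0 at 0.4, and 1 and 4 at 4-fold, since fewer genes can pass each of these.

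The shares within families moved with their definition. Per length, Ptgs2 made up 91.2% (ctrl) and 96.1% (M2) of the cyclooxygenases, Ptges 0.385% and 18.6% of the synthases, where its reads were 0.660% and 27.9%, and Ptger4 24.6% and 28.8% of the receptors, where its reads were 28.8% and 33.6%. Ptges was 10.8% and 82.7% without Ptges3. Ptger4 was 91.6% and 90.6% without Ptger1, a choice made after seeing the data. Depth limits Ptger2, Ptger3 and most other prostanoid receptors. No paired analysis was possible because there is a single library on each side, and for the same reason no library could be left out.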

Other observations

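The lipoxygenase and leukotriene branch, which also uses arachidonic acid, split evenly among its called genes, with 3 higher, 3 lower and 2 not called of 8 tested, against 8.16% and 6.57% of all genes. Both leukotriene B4 receptors were higher in M2. Ltb4r2 had 16 and 74 reads, a log2 difference of 2.07 (95% interval 1.35 to 3.02), and Ltb4r1 had 20 and 68 reads, a difference of 1.65 (0.96 to 2.49). Alox12, the platelet-type lipoxygenase, had 174 and 447 reads (1.29). Alox8 (53 and 24 reads, -1.18) was lower, as were Alox15 (43 and 13 reads, -1.72) and Aloxe3 (64 and 8 reads, -2.92), a lipoxygenase of the epidermal barrier, the latter pair named after their values were seen. In the edgeR exactTest at 0.2 the calls of Alox8 (adjusted p = 0.213) and Alox15 (0.0535) were lost. Alox5, the enzyme that starts leukotriene synthesis, had 0 and 9 reads, and its partner Alox5ap 0 and 1, too few to be tested; both were also named after their values were seen.

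Of 5 epoxyeicosanoid genes tested, 1 was called higher and 0 lower, against 8.16% and 6.57% of all genes. This was Ephx2, the soluble epoxide hydrolase, with 24 and 55 reads and a log2 difference of 1.09 (0.41 to 1.88), which dropped to 0.98 with a pseudocount of 5 and was not called in the edgeR exactTest at 0.2 (adjusted p = 0.298).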
